A study of Drosophila melanogaster with 4 samples.

Results

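CP190 clusters that stand alone on the chromosome arms were examined in whole embryos of Drosophila melanogaster. A cluster is a region that the authors called significantly enriched for CP190 in a ChIP-seq experiment. An isolated cluster was defined here as a cluster of the authors' combined list that lay on any of the 5 large arms, namely X and the left and right arms of chromosomes 2 and 3 (2L, 2R, 3L and 3R), was shorter than 3500 bp, and had its midpoint more than 25000 bp from the midpoint of both the previous and the next cluster of the arm. The first and last cluster of an arm were left out. This rule found 312 isolated clusters among 7701 clusters on the large arms and 7960 in the whole combined list. With 20 kb in place of 25 kb the rule found 502, and with 30 kb it found 190. Genes and regulatory elements at these positions were not analysed here.

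The embryos were of the wild-type strain Oregon-R and are labelled as 14 to 16 h old, although the protocol for collecting them states no more than that they were not older than 16 h. The series holds 2 CP190 ChIP samples and 2 samples of input chromatin, all from this strain and stage, and each ChIP replicate was called by the authors against an input. All groups were crosslinked with 1.8% formaldehyde, and no mutant, treatment or ChIP with another antibody was used here. The authors deposited 4461 clusters for ChIP replicate 1, 4900 for replicate 2, and the combined list, all on FlyBase release 5 of the genome. Neither the way in which the replicates entered the combined list nor the number of reads behind a cluster is stated in the labels or headers. Nothing says either that each ChIP replicate had its own collection of embryos, so a difference between them may be technical.

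CP190 is a protein with zinc fingers and a BTB domain that is found at many Drosophila insulators, the elements that can block contact between enhancers and promoters or limit the spread of chromatin states. It is brought to chromatin by DNA-binding insulator proteins such as Su(Hw) and the fly CTCF, and it is also found near many promoters of active genes. Because CP190 sites are dense along the fly genome, a site with no other site for a long way on either side is an uncommon arrangement. In whole embryos the ChIP signal is an average over all cell types.

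The members were chosen by position and length in the combined list, which comes from the same ChIP samples as every score and every replicate call. No value in these lists is therefore independent of the choice, no difference between isolated and other clusters was tested, and values are given as descriptions. The 95% intervals given in brackets after shares are exact (Clopper-Pearson), and they allow for counting error alone, not for differences among embryos. Each cluster has 1 deposited value, here called its log2 score, which was read from the values as the log2 of an enrichment ratio made by the authors. It is used for ranking only inside its own list. Where scores of different lists are set side by side they are described only, because the lists were scored separately. A combined cluster was counted as found in a replicate if it shared 1 bp or more with any cluster in that replicate's list.

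The isolated clusters included longer ones that both replicates held and shorter ones that neither held, and 60 of the 312 were held by 1 replicate only. In both replicate lists 116 isolated clusters were found (37.2%, 31.8 to 42.8%), against 47.4% of all large-arm clusters. The latter include clusters too long for the rule, and among the 6870 others under 3500 bp the share was 44.3% (43.1 to 45.4%). Replicate 2 alone held a further 40, and replicate 1 alone held 20. Neither list held the last 136 (43.6%, 38.0 to 49.3%), against 31.3% of all large-arm clusters and 33.1% (31.9 to 34.2%) of the others under 3500 bp. Each replicate on its own held 136 isolated clusters in the case of replicate 1 (43.6%, against 54.7% of all large-arm clusters) and 156 in the case of replicate 2 (50%, against 61.3%). Of the others under 3500 bp, replicate 1 held 52.1% and replicate 2 held 59.1%.

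Support followed the length of the cluster closely. Of the 126 isolated clusters of 2000 bp or more, 111 were found in both lists (88.1%, 81.1 to 93.2%) and 2 in neither. Among the 99 that were over 1300 but under 2000 bp only 5 were found in both (5.05%, 1.66 to 11.4%) and 52 in neither. None of the 87 isolated clusters of at most 1300 bp was found in both, which allows a share of up to 4.15%, and 82 of them were found in neither (94.3%, 87.1 to 98.1%). Every cluster of the replicate lists was longer than 1300 bp, while the combined list held clusters down to about 1 kb, so this last class had no counterpart of its own length in the replicate lists.

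**Figure D1:**
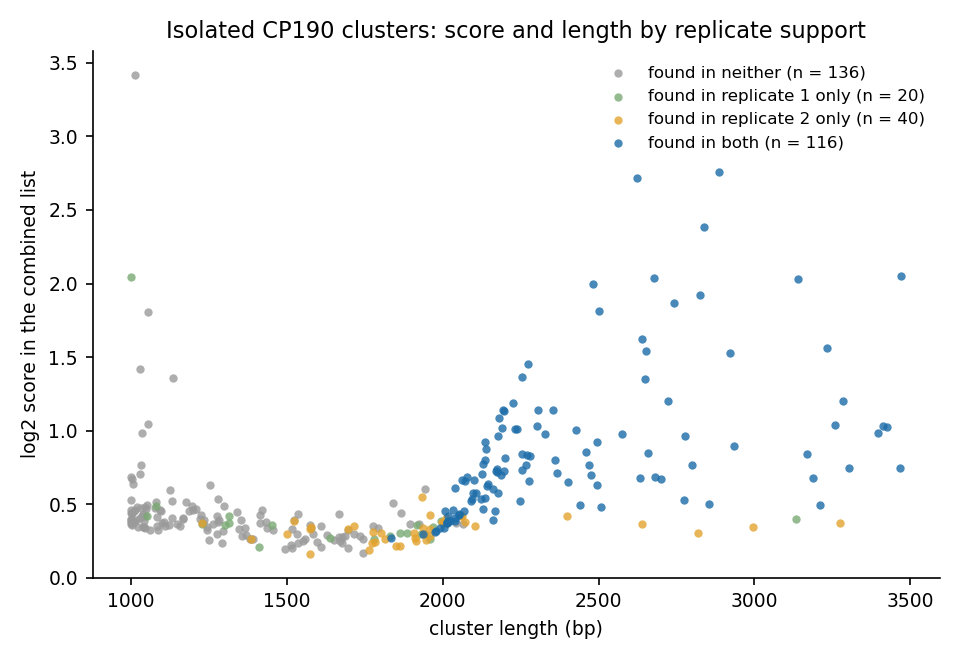
Each point is 1 of the 312 isolated clusters, placed by its length in bp and its log2 score in the combined list, and coloured by the replicate lists in which it was found. The 116 clusters found in both lists were at least 1835 bp long, and the 136 found in neither were at most 2066 bp long.

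The plot of score against length shows opposite slopes for clusters found in both lists and in neither. Among the 116 isolated clusters found in both lists the log2 score was higher in longer clusters (Spearman's rho 0.68 across clusters, which share the libraries). Among the 136 found in neither it was lower in longer clusters (Spearman's rho -0.55). Neither correlation was computed for other clusters, so the slopes are not read as a trait of isolated clusters. Clusters found in both lists had a median log2 score of 0.74 (quartiles 0.53 and 1.02) and were typically 2253 bp long (median). For clusters in neither list the median log2 score was 0.38 (quartiles 0.32 and 0.45), and no such cluster was longer than 2066 bp.

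High scores were held by a small part of the isolated clusters. A log2 score of at least 1 was reached by 39 of the 312 (12.5%, 9.04 to 16.7%), against 8.34% (7.70 to 9.02%) of the 6870 other large-arm clusters under 3500 bp and 9.48% of all large-arm clusters. Of the 39, 33 were found in both lists (84.6%, 69.5 to 94.1%), 1 in replicate 1 only and 5 in neither (12.8%). Those 5 were all between 1014 and 1136 bp long. Of the 573 other clusters under 3500 bp with such scores, 96.0% (94.0 to 97.4%) were found in both lists and 4.01% in neither. Among the 50 large-arm clusters with the highest log2 scores 9 were isolated, which is 18% of them, whereas isolated clusters made up 4.05% of all large-arm clusters. Of those 9, 7 were found in both lists. The share was 13% among the 100 highest scores and 5.8% among the 500 highest.

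The 10 highest-scoring isolated clusters found in both lists lay on 3R, X, 3L and 2L. The first of them, on 3R at 12622908 to 12625793, had log2 scores of 2.76 in the combined list, 2.59 in replicate 1 and 3.01 in replicate 2. Its neighbours' midpoints were 31.6 and 34.5 kb away. The second lay on X at 20630282 to 20632906, with 2.72 in the combined list, 2.65 in replicate 1 and 2.88 in replicate 2. It was only 1.79 Mb from the end of X that faces the centromere, and its nearer neighbour was 27.7 kb away. Here and elsewhere the end that faces the centromere was taken from the usual orientation of the arms, not from the files. The third lay on 3L at 504553 to 507390, near the end of its arm away from the centromere, with 2.39, 2.27 and 2.55 in the same lists. Over the large arms these 3 clusters ranked 6, 7 and 11 by combined score.

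The rest of the 10 had combined log2 scores of at most 2.05. On 3L the cluster at 19131380 to 19134850 had a combined log2 score of 2.05. It was also the longest isolated cluster, at 3471 bp. A cluster on X at 13456169 to 13458845 had 2.04, and its replicate scores were close to each other at 2.06 and 2.09. Another 3L cluster, at 2850020 to 2853159, had 2.03 in the combined list, 2.06 in replicate 1 and 2.42 in replicate 2. On 2L the cluster at 14705089 to 14707571 had 2.00 and a neighbour 87.2 kb away on its wider side. Another 2L cluster, at 14408539 to 14411363, had 1.92 and a neighbour 80.6 kb away on its wider side. The last of the 10 were on 3L at 18452404 to 18455145, with 1.87, and on 3R at 26911057 to 26913556, with 1.81. That 3L cluster was the only 1 of the 10 with a lower score in replicate 2 (1.84) than in replicate 1 (2.06). On 2R the highest isolated cluster reached 1.35, at 941917 to 944565.

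High scores also occurred in isolated clusters that neither replicate held, and these were all short. The highest log2 score of the whole combined list, 3.42, belonged to an isolated cluster of 1014 bp on 3R at 3675528 to 3676541, and neither replicate list had a cluster there. The next of this kind were on 2L at 4544233 to 4545287, with 1.81 and 1055 bp, and on 3L at 12954416 to 12955444, with 1.42 and 1029 bp. A cluster of about 1 kb on 3L at 23515290 to 23516290 had 2.05 in the combined list but 0.71 in replicate 1, and no cluster of replicate 2 overlapped it. The number of reads behind these scores is unknown.

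The replicates gave much the same order of strength at the isolated clusters that both held. Spearman's rho between the log2 scores was 0.84 and Pearson's r was 0.94 over the 116 clusters, which are not independent replicates. Scores ran from 0.19 to 2.65 in replicate 1, with a median of 0.72, and from 0.32 to 3.01 in replicate 2, with a median of 0.85. The score was higher in replicate 2 for 97 of the 116 clusters (83.6%), with a mean difference, replicate 2 minus replicate 1, of 0.15 ± 0.18 (SD over clusters). Among other clusters under 3500 bp found in both lists, 70.0% of 3040 were higher in replicate 2, with a mean difference of 0.09 ± 0.17. The lists were scored separately, so the offset by itself has no reading as a change in binding.

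**Figure D2:**
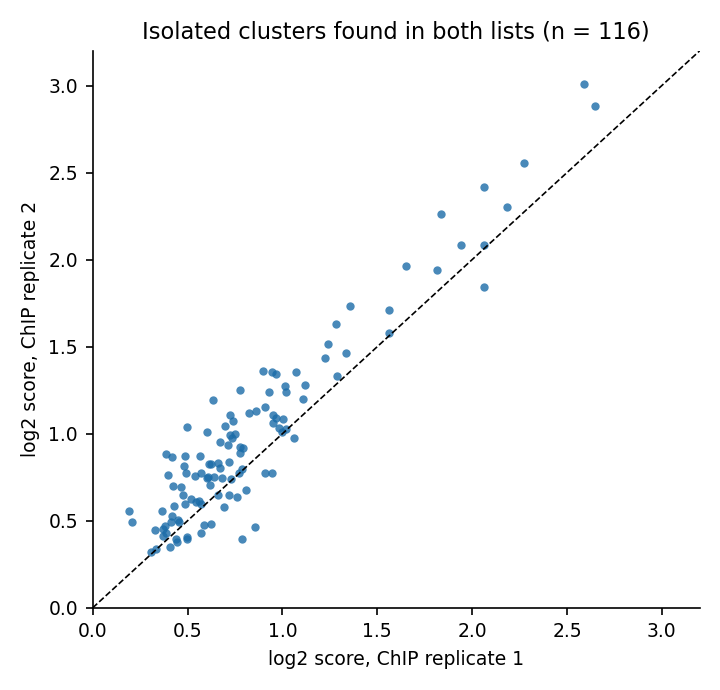
Each point is 1 of the 116 isolated clusters found in both lists, with its log2 score in ChIP replicate 1 on the horizontal axis and in replicate 2 on the vertical axis. The dashed line marks equal scores, and 97 of the 116 points lie above it.

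Taken as deposited, the largest differences between the replicates were higher scores in replicate 2. The mean offset of 0.15 towards replicate 2 was not removed, so the order of the 2 directions is not read as a result. On 2R the cluster at 9784196 to 9786330 had a log2 score of 0.63 in replicate 1 and 1.19 in replicate 2, and that at 15612746 to 15615934 had 0.50 and 1.04. The largest differences in the other direction were smaller with the offset left in. The 3L cluster at 17203775 to 17205868 had 0.79 in replicate 1 and 0.39 in replicate 2. On 3R the cluster at 11579397 to 11581543 had 0.86 and 0.47. All 4 were longer than 2000 bp.

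The distances were largely kept in the replicate lists, which follows in good part from the rule, since only 92 large-arm clusters of replicate 1 and 32 of replicate 2 overlapped no combined cluster. Of the 176 isolated clusters found in at least 1 list, 161 (91.5%, 86.3 to 95.2%) had counterparts that were likewise more than 25 kb from both neighbours in every list that held them. Over all large-arm clusters with a neighbour on each side, chosen by no such rule, 12.8% in replicate 1 and 10.3% in replicate 2 were that far from both neighbours, and nothing is read from this difference. When members and neighbours were taken only from combined clusters above the median score, the share of supported clusters isolated in every list that held them was 39.8%. That choice removes weaker neighbours from the combined list, whereas distances in a replicate are to neighbours in its own list. The 39.8% is therefore not read against the 91.5%. No isolated cluster overlapped more than 1 cluster of either list. Where both lists held it, the median isolated cluster was covered to 94.9% by the cluster of replicate 1 and to 97.0% by that of replicate 2.

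Clusters listed for a replicate but absent from the combined list were rare on the large arms as a whole, with 92 in replicate 1 and 32 in replicate 2. The gaps around isolated clusters made up 23.0% of these arms. No share for other stretches was computed, so nothing is read from the count that follows. A replicate cluster of this kind lay in a gap next to 31 of the 312 isolated clusters, from replicate 1 at 21 and from replicate 2 at 10. The gaps of the other isolated clusters held the midpoint of no such cluster. Replicate clusters that overlapped a combined cluster and reached into a gap were not counted.

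Isolated clusters were compared with the 6870 other clusters on the same arms that were under 3500 bp and had a neighbour on each side. The mixture of lengths differed, as 27.9% of isolated clusters (23.0 to 33.2%) and 19.8% of the others (18.9 to 20.8%) were at most 1300 bp long. In this shortest class 94.3% of the isolated clusters and 89.9% of the others (88.2 to 91.5%) were found in neither list. From 2000 bp upwards, 88.1% of the isolated clusters and 86.3% of the others (85.0 to 87.4%) were found in both lists. Over 1300 but under 2000 bp the shares were 5.05% of the isolated clusters and 12.3% (11.0 to 13.7%) of the others, while 52.5% (42.2 to 62.7%) and 42.4% (40.4 to 44.5%) were found in neither. From 2000 bp upwards the median log2 score was 0.71 for isolated clusters and 0.59 for the others, with upper quartiles of 1.01 and 0.85. In the middle length class the medians were 0.30 and 0.31. In the shortest class they were 0.42 for isolated clusters and 0.38 for the others, with upper quartiles of 0.49 and 0.43.

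Among clusters found in both lists the median log2 score rose with distance to the nearer neighbour, mainly in the isolated class, though support did not. Those with a neighbour within 5 kb had a median log2 score of 0.59 (n = 1349). At 5 to 10 kb the median was 0.60 (n = 1053), at 10 to 25 kb it was 0.62 (n = 638), and the isolated clusters had 0.74 (n = 116). The share found in both lists was 40.8%, 47.6%, 47.0% and 37.2% over the same 4 classes, so the isolated clusters and those with a close neighbour had the lowest shares. In clusters of 2000 bp or more it was 84.3%, 86.6%, 90.1% and 88.1%. Clusters found in both lists had median lengths of 2207, 2226, 2234 and 2253 bp over these 4 classes. Within the isolated clusters alone the smaller distance had little relation to the score (Spearman's rho 0.05 across 312 clusters). For the 116 isolated clusters found in both lists Spearman's rho was -0.09, so the rise over the classes did not continue among them.

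**Figure D3:**
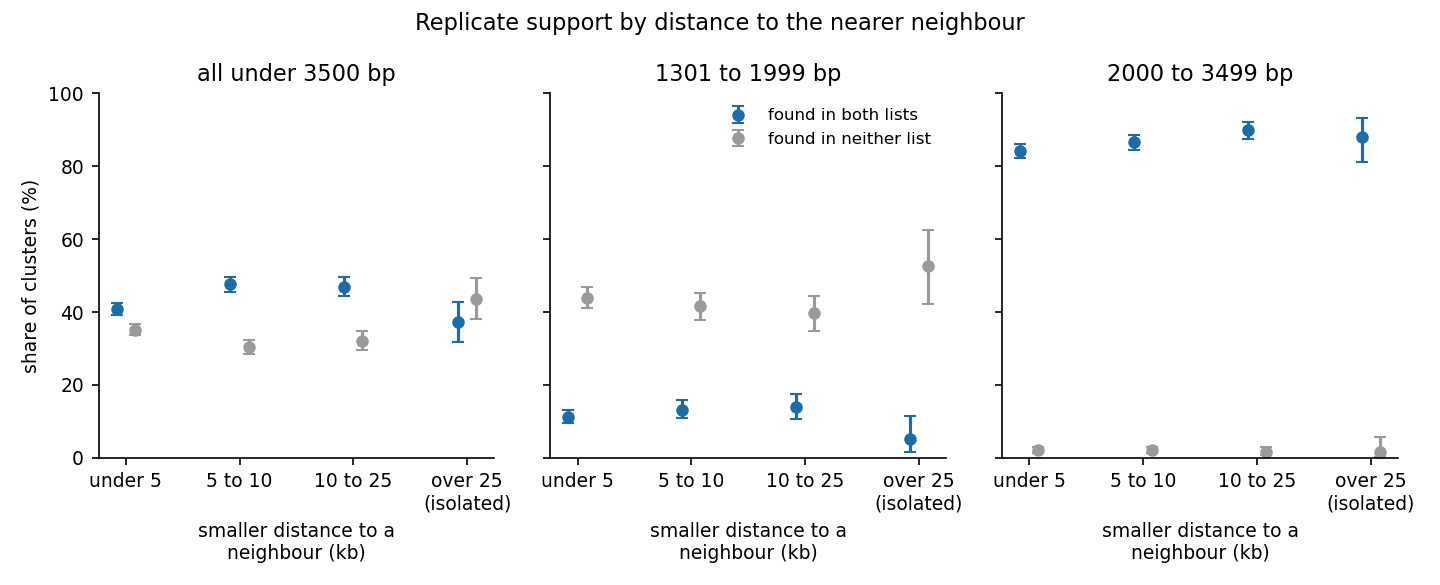
Points give the share of large-arm clusters under 3500 bp found in both replicate lists (blue) and in neither (grey), by the distance in kb to the nearer neighbour, and bars are exact 95% intervals. In the right panel, which holds clusters of 2000 bp or more, the share found in both is between 84.3% and 90.1% at every distance.

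Clusters in tight runs, with both neighbours under 5 kb away, are the opposite arrangement, and their support was also low. Of 553 such clusters under 3500 bp, 34.0% (30.1 to 38.1%) were found in both lists and 39.2% (35.1 to 43.4%) in neither, against 37.2% and 43.6% of the isolated clusters. The upper quartile of the log2 score was 0.68 for isolated clusters and 0.51 for tight runs. The highest log2 score of a cluster in a tight run was 1.96. Other close neighbours went with higher values. The highest score among clusters found in both lists was 2.81 with the nearer neighbour within 5 kb. It was 2.89 with that neighbour at 5 to 10 kb, and 2.76 for isolated clusters.

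The gaps around the isolated clusters made up 541 separate stretches between neighbouring midpoints, with 27.3 Mb in all, or 23.0% of the 5 large arms. The rule sets their least width, and their median was 40415 bp, against 37867 bp for all 1273 distances over 25 kb between neighbours on the large arms, which include these 541. Over 50 kb were 176 of them and over 100 kb were 32. The smaller of the distances on either side of an isolated cluster had a median of 31.6 kb, and the larger had a median of 51.6 kb. Both distances exceeded 50 kb at 44 isolated clusters, of which 16 were found in both lists.

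**Figure D4:**
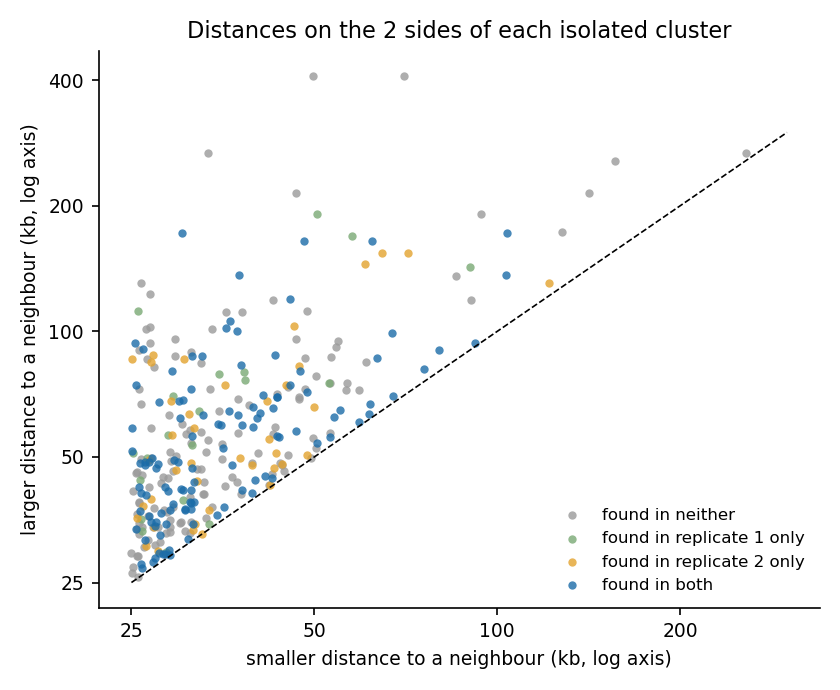
Each point is 1 of the 312 isolated clusters, placed by the smaller and the larger of its distances to a neighbour in kb, both on log axes, and coloured by replicate support. The dashed line marks equal distances, and the widest gap, shared by 2 clusters found in neither list, spans 409531 bp.

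The clusters with the widest surroundings lay close to the centromeres and were mostly short. On 2L the cluster at 22446391 to 22447419 was 257 and 267 kb from its neighbours, and the next cluster of the arm, at 22703308 to 22704343, was 156 and 257 kb from its own. They were followed by a 3L cluster at 24069511 to 24070511, with a smaller distance of 142 kb, and by a 2R cluster at 1292045 to 1293252, with 128 kb. None of these 4 was found in a replicate list, and none was longer than 1208 bp. The fifth, on 2R at 206741 to 208517, was 122 kb from its nearer neighbour and was found in replicate 2 only, with a log2 score of 0.75 there and 0.31 in the combined list. All 5 lay within 1.29 Mb of the arm end that faces the centromere.

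Of the 7 isolated clusters with more than 100 kb on both sides, 2 were found in both lists, and they were picked out after their values were seen. The X cluster at 22053361 to 22055536, in the last 0.37 Mb before the centromere, had log2 scores of 0.98 in replicate 1 and 1.03 in replicate 2. The 3L cluster at 14401766 to 14404538 had 0.52 and 0.63 and lay 10.1 Mb from the centromere-facing end. It was the only 1 of the 7 more than 2 Mb from that end.

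Per Mb of sequence, isolated clusters were most frequent near the centromeres, where clusters of all kinds are sparse. The last 2 Mb before the centromere on the 5 arms held 42 isolated clusters (13.5%), against 4.66% of all large-arm clusters and 8.40% of the arms' sequence. In that stretch 12.5% of clusters under 3500 bp were isolated (9.13 to 16.5%), and in the 4 stretches farther out the share was 3.46 to 4.76%. Of the 42, 10 were found in both lists (23.8%, 12.1 to 39.5%) and 24 in neither (57.1%, 41.0 to 72.3%). Farther out 39.3% of 270 were found in both and 41.5% in neither. Other clusters under 3500 bp showed the same direction, with 36.9% found in both and 38.3% in neither within the 2 Mb, and 44.6% and 32.8% farther out. The mixture of lengths moved with this, as 21 of the 42 and 66 of the 270 were at most 1300 bp long. How well reads could be placed near the centromeres was not measured here, and its part in the result was not tested.

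**Figure D5:**
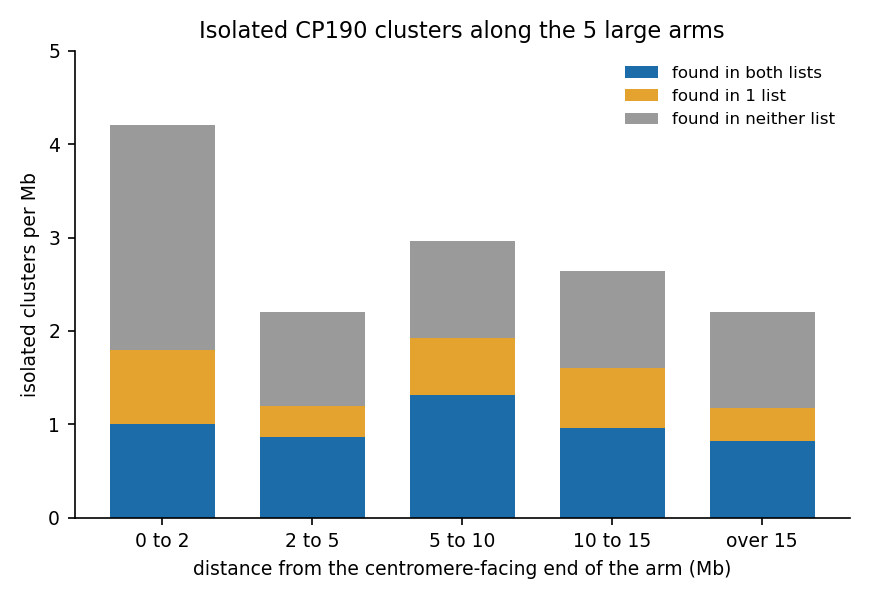
Bars give isolated clusters per Mb of sequence over the 5 large arms by distance in Mb from the arm end that faces the centromere, split by replicate support. The first stretch, 0 to 2 Mb, has 4.20 per Mb, and the others have 2.20 to 2.96 per Mb.

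The 10 centromere-near clusters found in both lists included strong ones. After the X cluster at 20630282 to 20632906, the highest combined log2 score was 1.35 for the 2R cluster at 941917 to 944565, with 1.33 in replicate 1 and 1.46 in replicate 2. On 3R the cluster at 911533 to 914817 had 1.20, and on X that at 22225538 to 22227762, only 0.20 Mb from the end, had 1.19. On 3L the cluster at 23799545 to 23801777, with neighbours 91.9 and 94.0 kb away, had 1.01. The lowest of the 10 was on 2L at 21898437 to 21900509, with 0.66. All 10 were between 2073 and 3285 bp long.

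The arms differed in how many of their clusters were isolated. On 2L there were 79, which is 3.43 per Mb and 5.96% of its clusters (4.75 to 7.38%). On 3L there were 70 (2.85 per Mb, 4.73%), on 3R 70 (2.51 per Mb, 3.74%) and on X 56 (2.50 per Mb, 3.66%). Arm 2R had the fewest, with 37 (1.75 per Mb, 2.48%, 1.75 to 3.40%). The number of all clusters per Mb ran in the opposite order over the 5 arms, from 57.6 on 2L to 70.6 on 2R. A rule on the distance to neighbours finds more members where clusters are sparse, so this order follows in good part from the rule. Farther than 2 Mb from the centromere-facing end 2L still had the most (71, or 3.38 per Mb) and 2R the fewest (27, or 1.41 per Mb).

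Support among isolated clusters was lowest on 2R. There 9 of 37 were found in both lists (24.3%, 11.8 to 41.2%) and 62.2% in neither. On 3L 33 of 70 were found in both (47.1%, 35.1 to 59.4%) and 30% in neither. The other arms lay between, with 39.2% found in both on 2L, 34.3% on 3R and 33.9% on X, and the intervals of all 5 arms overlap. Lengths differed too, with medians of 1698 bp on 2R, 1725.5 bp on 3R, 1737.5 bp on X and 1948 bp on 2L and 3L. Support over all clusters of each arm is not given here, so the order of the arms is not read as a trait of isolated clusters. The median log2 score of isolated clusters was 0.48 on X, 0.47 on 3L and 0.38 to 0.39 on the other 3 arms.

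Some isolated clusters followed each other along an arm. By the rule each neighbour of an isolated cluster already has a wide gap on 1 side, and no share for chance order was computed. Next to at least 1 other isolated cluster lay 144 of the 312 (46.2%). There were 47 runs of 2 isolated clusters, 9 runs of 3, 4 runs of 4 and 1 run of 7. That longest run spanned 738 kb on 2R, from 206741 to 944565, and included the widest gap of all, 409531 bp. Its first member was found in replicate 2 only, the next 5 in neither list, with log2 scores of 0.35 to 0.48, and the last, at 941917 to 944565, in both.

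The clusters that bordered the gaps but were not themselves isolated numbered 458. Of these 51.7% (47.1 to 56.4%) were found in both lists, and their median log2 score was 0.44, against 37.2% and 0.42 for the isolated clusters. The median length was 2011 bp for these bordering clusters and 1833 bp for the isolated ones. The length limit was not applied to the bordering clusters.

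The clusters nearest to the limits of the rule had a mixture of support on both sides. Just inside the distance limit were a 3R cluster at 3977268 to 3978546 (smaller distance 25001.5 bp, found in neither), an X cluster at 17400135 to 17402576 (25015 bp, both) and an X cluster at 17097088 to 17098509 (25048 bp, neither). Just outside were 2R clusters at 21101831 to 21103670 (24960 bp, replicate 2 only) and 1736555 to 1738246 (24789.5 bp, replicate 1 only). Between them in distance was an X cluster at 17424772 to 17427969 (24850.5 bp, both), whose log2 score of 2.13 would have placed it just below the first 3 of the isolated clusters found in both lists. At the length limit the longest members were 3471, 3466 and 3424 bp, with log2 scores of 2.05, 0.75 and 1.03, and the shortest clusters left out for length alone were 3595, 3627 and 3675 bp, with 0.32, 0.78 and 1.15. All 6 were found in both lists. In all 15 clusters met the distance rule but were too long.

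A few isolated clusters departed from the pattern of support by length. The 5 found in both lists at under 2000 bp lay on 2L and 3L, measured 1835 to 1992 bp and had combined log2 scores of 0.27 to 0.34. The weakest of them, on 3L at 18546796 to 18548630, had 0.37 in replicate 1 and 0.45 in replicate 2. Of at least 2000 bp but in neither list were a pair of 2R clusters, at 1809021 to 1811063 and 12841948 to 12844013, both with a combined log2 score of 0.37. At the lower limit, 8 isolated clusters had exactly the shortest length of the combined list, about 1 kb. Of these, the clusters on 2R at 16364383 to 16365383 and 19202424 to 19203424 had 0.44 and 0.39 and were found in neither replicate list.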

How the data were processed

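CP190 ChIP-seq cluster lists from 2 ChIP replicates and 1 combined list were used. The submitters' processing notes name Bowtie 0.12.7 as the aligner, and coordinates are on FlyBase release 5, per the file headers. Neither the peak caller nor its thresholds are given in the sources used here. The authors gave each cluster 1 value, deposited without a unit and treated here as the log2 of an enrichment ratio that they computed. This reading rests on the values, since 2 raised to the value, divided by 1 constant per list, gave a ratio of whole numbers (denominator at most 2000, relative tolerance 1e-12) for 7954 of 7960 combined clusters and with base e or 10 for at most 0.531% in any list. Read depth is unknown, and no interval is given for a score. Distances are between midpoints, since no summits are given.

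Members and comparison sets were chosen with earlier results of these data known. Named clusters are the 10 highest scores found in both lists, the highest on each arm, the 5 with the widest smaller distance, the 3 highest found in neither, the 2 longest and 2 shortest (8 tied at the shortest length, of which the first 2 in order are described), the longest run and the 3 on each side of a limit. The 2 largest differences between replicates in each direction and others described as exceptions were picked after their values were seen. Alternatives varied the distance, its definition, the length limit, the neighbours, merging, the centromere-facing 2 Mb, the overlap and the list. Rule and overlap counting were tested on simulated lists. Tools were pandas 2.3.3, NumPy 2.4.6, matplotlib 3.10.9 and SciPy 1.17.1 under Python 3.11.15. No annotation of release 5 was used.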

Additional observations from a re-analysis of the deposited data

How the results depend on the processing

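Of 75 alternative values over 7 results, 49 stayed the same and 26 moved. Staying the same meant within 1.5 times the count or inside the 95% interval (for medians, from order statistics). The results are counts, shares and medians, so none had a direction that could turn. The number of isolated clusters, 312, was 502 with distances over 20 kb, 190 over 30 kb and 619 when members and neighbours were taken only from clusters above the median score. In that last setting 76.3% were found in both lists and 19.2% in neither, the log2 score had a median of 0.62 and the length a median of 2186 bp, 39.8% of supported clusters were isolated in every list that held them, and 14.4% had a cluster of a single replicate in a gap. With members and neighbours found in at least 1 list, 65.9% were found in both and, by construction, 0% in neither, and the medians were 0.49 for the log2 score and 2107 bp for the length. Among members longer than 1300 bp, 51.6% were found in both and 24% in neither, with a median length of 2040 bp. With either replicate left out, the rule on the other replicate's own list gave 467 (replicate 1 left out) to 531 (replicate 2 left out) clusters, median log2 scores of 0.60 to 0.62 and median lengths of 2047 to 2081 bp. The combined members found in the remaining list made up 43.6 to 50%, those absent from it 50 to 56.4%, and 92.6 to 96.8% of those found were isolated there. Fewer or stronger neighbours change membership by construction, and the cause of other changes was not tested. The limit that read depth sets on short, weak clusters could not be measured without counts. No paired analysis was possible because each ChIP replicate is 1 list and input enters only by way of the authors' calling.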
